A study of Mus with 16 samples.

Results

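B16 tumours from B cell-depleted mice were compared with B16 tumours from wild-type (WT) mice, neither given the antibody against PD-L1, to ask what the presence of B cells changes in an untreated tumour. The comparison takes in 8 of the 16 RNA-seq libraries of the study, 4 depleted and 4 WT, chosen by the column names that mark B cell loss, WT and no treatment, and it covers 19340 of the 38087 genes listed. Each library came from the tumour of 1 C57BL/6 mouse, and B16 is a transplantable mouse melanoma that was placed under the skin and grown for 7 days. The other 8 libraries, also 4 depleted and 4 WT, came from mice given an antibody against PD-L1 in 3 doses every 3 days, with tumours taken 3 days after the last dose, and they serve here for the shared estimate of spread and for the last comparison. The sample records list the same schedule of doses and harvest for the untreated tumours. The 7 days of growth are therefore not stated to be their age at harvest. The labels call the first group depleted of B cells while the columns call it BKO, and how B cells were removed from these mice is not stated for the samples. In its methods the study names both muMt- mice, a knockout line without mature B cells, and an antibody that removes B cells, so a depleted tumour may come from a knockout host that never had mature B cells, and the WT mice may then differ from it in more than B cell number. The design text also speaks of an injection into the tumour of a further agent or its control, which no label assigns to a library.

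B cells carry immunoglobulin as their antigen receptor, and mature ones are known by CD20 and the receptor chains CD79a and CD79b. Besides making antibody they take up antigen and show it to T cells on MHC class II, and they release cytokines. B16 tumours are known for few infiltrating lymphocytes and little MHC class I, and most of their RNA comes from pigmented tumour cells. In RNA from a whole tumour, fewer cells of a type and less RNA per cell cannot be told apart.

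Depleted libraries A to D held 21727866, 15729004, 32277902 and 34298383 counts, and WT libraries A to D held 27375594, 28538386, 23095556 and 33362515. Depleted library B stood apart, with a median correlation of 0.931 to the other libraries of its group, against 0.975 in depleted libraries A, C and D and 0.986 to 0.989 in the WT libraries. Its slope of log2 expression on GC content was -0.72 per 10 percentage points, against -0.10 to 0.32 in the other depleted libraries and 0.14 to 0.25 in the WT libraries. The tissue label was checked by its markers, and the 19 pigment cell genes held between 28670 and 31600 CPM in depleted tumours and between 25770 and 30080 CPM in WT tumours. CPM, the unit of expression here, is a gene's count relative to the total of its library. For single genes and for the sums of short genes the total is scaled so that most genes match between libraries, and for sums over gene lists and for Igkc it is the plain total. Counts cover whole gene spans, introns included, and reads were not separated by strand, so a read in the overlap of neighbouring genes was listed for both.

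Loss of B cells was checked in the immunoglobulin genes first. Igkc, the constant region of the kappa light chain, had 0 counts in each of the 4 depleted libraries, against 5, 2, 31 and 1 counts in WT libraries A to D. WT library C held most of the reads, but every WT library had at least 1. The 0 counts allow at most 0.0288 CPM over the depleted group (3 counts, counting error only), so Igkc was at least 12-fold lower than the 0.347 CPM of the WT group, and at least 3.11-fold lower without WT library C. The exact two-sided permutation p was 0.0286, the smallest that 4 against 4 libraries allow, and the adjusted p over all 29 such genes of the B cell and plasma cell lists with any count was 0.118. Fcer2a, the low-affinity IgE receptor of mature B cells, had 0 against 10 counts in all (exact p = 0.0286, adjusted 0.118). Its counts in WT libraries A to D were 1, 4, 1 and 4, so the 0 counts in depleted libraries cannot tell absence from a low level.

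Other B cell genes did not follow. Ms4a1, which encodes CD20, had 12 counts in depleted and 4 in WT libraries (exact p = 0.0286, adjusted 0.118). Cd79a had 77 and 92 counts (exact p = 0.4, adjusted 0.682), and Cd79b had 21 and 16 (exact p = 0.171, adjusted 0.413). Ighm, the heavy chain of IgM, had 38 counts in depleted libraries, against 97 in WT libraries, of which WT library C held 65. Several genes of the list lay higher without B cells. Cr2, the complement receptor CD21, had 0.3096, 0.5104, 0.345 and 0.489 CPM in depleted libraries A to D, against 0.229, 0.214, 0.137 and 0.1898 CPM in WT libraries A to D. Here and below a value with ± is the log2 change, depleted over WT, with its standard error (Cr2, 1.06 ± 0.33, adjusted p = 0.115). Cd22, an inhibitory co-receptor of B cells, had 1.42, 2.62, 1.79 and 3.08 CPM, against 1.19, 1.39, 0.641 and 0.633 CPM (log2 change 1.203 ± 0.41, adjusted p = 0.138). Of the 20 listed B cell genes 10 had enough counts to be tested over all genes, none was called, and their median log2 change was 0.28. Summed CPM of the list was 62.1 to 85.7 in depleted tumours, against 64.1 to 75.7 in WT tumours. In WT tumours too, the B cell genes beside Cd72 and Bank1 lay at a few CPM or less, so these libraries held few B cell transcripts to lose. Among the 4 tested plasma cell genes (none called, median 0.45) the lowest p-values were those of Xbp1, a factor of secretory cells at 95.3 to 157 against 71.9 to 109.5 CPM (0.41 ± 0.17, adjusted p = 0.212), of Prdm1, the plasma cell factor Blimp-1 (0.77 ± 0.33, adjusted p = 0.222), and of Irf4 (0.48 ± 0.32, adjusted p = 0.416).

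Across all tested genes, 172 of 19340 (0.889%) were called at an adjusted p-value under 0.05, 41 higher (0.212%) and 131 lower (0.677%) in depleted tumours. The median change over all genes was 0.04 on the log2 scale, and 53.6% of genes had a change above 0. At an unadjusted p under 0.05 there were 3707 genes (19.2%), 1706 higher and 2001 lower. All 4 depleted libraries lay above all 4 WT libraries in 828 genes (4.28%) and below them in 1630 (8.43%). The call rests on a spread shared by all 16 libraries: a fit of only the 8 untreated libraries called 0 genes (2926 had an unadjusted p under 0.05). DESeq2, also on 16 libraries, called 990, and limma with library weights, which gave depleted library B a weight of 0.116, called 1819. Fits without 1 WT library called 26 genes without A, 48 without B, 30 without C and 22 without D. Of these, 26, 42, 29 and 22 were among the 172. Fits without 1 depleted library called 141 without A, 202 without B, 103 without C and 104 without D, with 93, 122, 77 and 82 among the 172. Of the 65 called genes named below, 5 were called whichever of the 8 libraries was left out: Lrrc66, Stoml2, Gm5278, Rpl27-ps2 and Gm13198.

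The called genes were unevenly spread over gene types. Protein-coding genes made up 78.1% of the genes tested and gave 22 of the 41 higher and 46 of the 131 lower genes. Pseudogenes, mostly copies of mRNAs that were set back into the genome, made up 11.9% of the genes tested and gave 9 higher and 69 lower genes, so that 2.99% of tested pseudogenes and 0.304% of tested protein-coding genes were called lower. Genes annotated as miRNA gave 3 higher and 8 lower calls among 124 (6.45% lower), lincRNA genes 0 and 5 among 897, antisense genes 4 and 3 among 610, and other noncoding genes 3 and 0 among 169. Of 95 snoRNA genes none was called, with a median change of 0.44. The lower genes were also short. Their median span was 972 bases, against 9615 bases in the higher genes and 17812.5 bases in all genes tested, and their median GC content was 49.8%, against 46.7% and 46.4%. Of the lower genes 45 (34.4%) shared at least 50% of their span with another gene, against 15.9% of all genes.

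**Figure D1:**
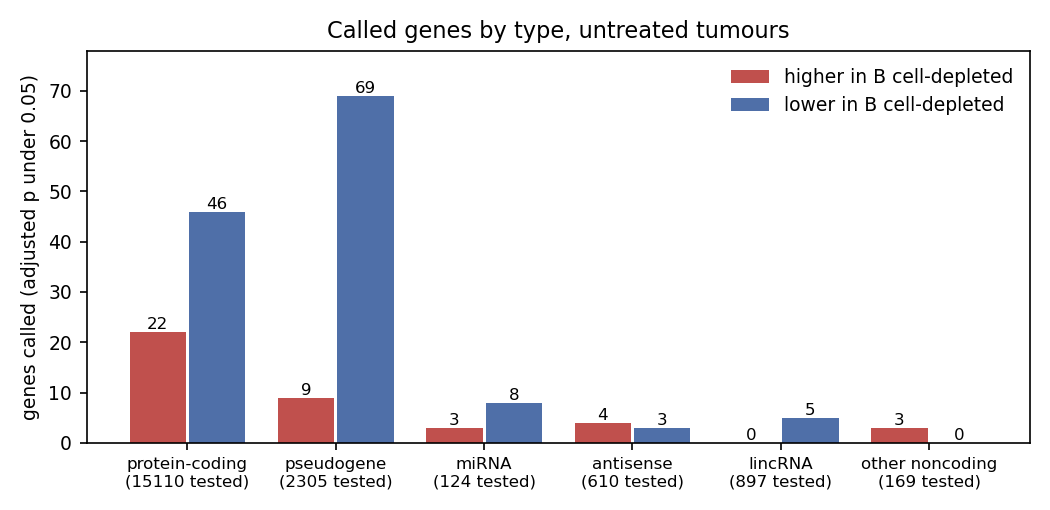
Genes called at an adjusted p under 0.05 (y axis, number of genes) by annotated type (x axis, with the number tested), with genes higher in B cell-depleted untreated tumours in red and lower ones in blue. Pseudogenes gave 69 of the 131 lower genes, more than the 46 protein-coding ones, although they were 2305 of the genes tested against 15110.

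The protein-coding genes that rose included Naip2 from the list of innate sensors, and Irf5, Sectm1a and Cd59a, which are on no list. Naip2, a cytosolic sensor of bacterial secretion proteins that starts the inflammasome (chromosome 13, 100144063 to 100202092), had 4.07, 2.62, 3.39 and 3.36 CPM in depleted libraries A to D, against 0.956, 1.602, 1.42 and 0.601 CPM in WT libraries A to D. The groups were well apart at a low level, and the log2 change was 1.56 ± 0.33, adjusted p = 0.0407. It belongs to a family of near-identical copies, between which reads can be misplaced. Irf5, a transcription factor that acts downstream of Toll-like receptors (chromosome 6, 29526625 to 29541869), had 77.1, 155, 117 and 94.1 CPM, against a narrow 65.5, 61.6, 60.4 and 63.5 CPM (log2 change 0.82 ± 0.17, adjusted p = 0.0368). Depleted library B was the highest and A came close to the WT values. Sectm1a, a secreted and transmembrane protein that acts on T cells (chromosome 11, 121067407 to 121081220), had 223, 482, 396 and 315 CPM, against 182, 157, 170.1 and 158 CPM (log2 change 1.09 ± 0.21, adjusted p = 0.0263), with the same order of the depleted libraries. Cd59a, which shields cells from the membrane attack complex of complement (chromosome 2, 104095801 to 104115354), had 13.7, 15.6, 12.2 and 15.3 CPM, against 7.57, 6.37, 8.38 and 6.93 CPM (log2 change 0.96 ± 0.21, adjusted p = 0.0434). In values normalized by the authors, Irf5 and Sectm1a went the other way (-1.20 and -0.10).

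Among the genes that rose were also Ttn and Xirp2 from the list of skeletal muscle genes. Ttn, the giant spring protein of the sarcomere, had 3.405, 1.53, 2.42 and 5.26 CPM in depleted tumours, against 1.11, 1.35, 1.05 and 1.01 CPM in WT tumours (log2 change 1.49 ± 0.32, adjusted p = 0.0416). The antisense gene Gm13938 covers 22.9% of that span. Xirp2, an actin-binding protein of muscle, was above 2 CPM in depleted libraries C and D and near the WT level in A and B (2.71 ± 0.56, adjusted p = 0.0357). Afap1l2, an adaptor bound to actin filaments (chromosome 19, 56912361 to 57008228), had 7.65, 9.82, 8.69 and 10.2 CPM, against 3.37, 5.55, 4.58 and 5.38 CPM (log2 change 0.94 ± 0.21, adjusted p = 0.0469). Dpysl2, which binds tubulin, had 39.9, 44.4, 50.2 and 33.8 CPM, against 26.8, 28.3, 22.4 and 26.9 CPM (log2 change 0.69 ± 0.15, adjusted p = 0.045). It was chosen after its values were seen.

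Further higher genes included enzymes of lipids and ubiquitin. Gdpd1, a phosphodiesterase of lysophospholipids (chromosome 11, 87033867 to 87074062), had 29.9, 42.4, 28.7 and 25.7 CPM, against 18.7, 20.1, 15.8 and 16.1 CPM (log2 change 0.84 ± 0.18, adjusted p = 0.0386). Usp2, a deubiquitinase that acts on clock proteins, had 21.1, 14.9, 20.2 and 23.5 CPM, against 10.4, 12.5, 8.198 and 9.18 CPM (log2 change 0.99 ± 0.18, adjusted p = 0.0198), but its whole span lies in that listed for Rnf26, so the reads cannot be assigned to it alone. Zfp575, a zinc finger protein, had 23.6, 17.9, 21.2 and 23.3 CPM, against 13.96, 9.11, 15.6 and 10.8 CPM (log2 change 0.8 ± 0.18, adjusted p = 0.0469). 9130014G24Rik, an open reading frame with no role given here, had 40.5, 62.8, 44.9 and 70.2 CPM, against 31.1, 24.9, 21.3 and 22.8 CPM (log2 change 1.12 ± 0.24, adjusted p = 0.0376). Gm10073, a gene model with no role given here, had 643, 1248, 723 and 737 CPM, against 473, 469, 499.8 and 432 CPM (log2 change 0.84 ± 0.19), with an adjusted p that rounds to 0.05, and 0.597 without depleted library B, no longer called. In each of these genes the groups did not overlap, which the rule for naming them required, except for Ttn, Xirp2, Dpysl2, Usp2 and Zfp575, where it held without being required.

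Lower protein-coding genes were led by genes at a few CPM. Cst13, a member of the cystatin family of protease inhibitors (chromosome 2, 148820081 to 148830410), had 0, 0.255, 0.0941 and 0 CPM in depleted tumours, against 1.797, 1.07, 0.962 and 0.411 CPM in WT tumours. It was close to the limit of counting, with 0 in depleted libraries A and D (log2 change -3.83 ± 0.83, adjusted p = 0.0417). Lrrc66, a membrane protein with leucine-rich repeats (chromosome 5, 73606643 to 73632505), had 1.59, 3.38, 0.847 and 3.02 CPM, against 11.5, 12.2, 8.75 and 16.6 CPM (log2 change -2.49 ± 0.36, adjusted p = 0.0101). Fam163b had 0.398, 0.191, 0.0941 and 0.518 CPM, against 1.19, 1.39, 0.8701 and 1.71 CPM (log2 change -2.06 ± 0.42, adjusted p = 0.0357). Zfp185, a LIM domain protein of the actin cytoskeleton, had 0.796, 0.447, 0.627 and 1.64 CPM, against 2.60, 3.45, 3.11 and 3.45 CPM (log2 change -1.79 ± 0.38, adjusted p = 0.0375). Gsdmc4, a gasdermin of a cluster of like copies, had 0.531, 0.5104, 0.721 and 0.4601 CPM, against 2.49, 1.78, 1.74 and 1.52 CPM (log2 change -1.74 ± 0.35, adjusted p = 0.0346). Cgnl1, which joins tight junctions to the cytoskeleton, had 4.02, 4.15, 5.99 and 3.48 CPM, against 9.14, 7.05, 18.4 and 11.9 CPM (log2 change -1.39 ± 0.29, adjusted p = 0.0373), with WT library C the highest. Gm7293 (-1.402 ± 0.29, adjusted p = 0.0373) and Rps2-ps5 (-1.36 ± 0.29, adjusted p = 0.0417), listed as coding although the name of the second is that of a pseudogene, also fell. In values normalized by the authors, Lrrc66, Fam163b and Cgnl1 were not lower (0.16, 0.00 and 0.08).

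Further lower genes were more abundant. Cyr61, a matrix protein that is switched on early by growth signals, had 36.97, 41.5, 38.7 and 39.2 CPM in depleted tumours, against 69.8, 64.2, 97.7 and 98.9 CPM in WT tumours (log2 change -1.08 ± 0.22, adjusted p = 0.0346). The depleted tumours were within 5 CPM of each other, and WT libraries C and D were the highest. Aurkb, the kinase of the chromosomal passenger complex in mitosis, had 72.4, 57.7, 73.9 and 65.8 CPM, against 104, 104, 93.4 and 101 CPM (log2 change -0.57 ± 0.13, adjusted p = 0.0469). Stoml2, a scaffold of the inner mitochondrial membrane, had 29.9, 21.3, 26.6 and 30.9 CPM, against 48.8, 49.8, 52.2 and 46.9 CPM (log2 change -0.86 ± 0.13, adjusted p = 0.0101). Hs3st1, which sulphates heparan chains, had 27.7, 22.97, 31.9 and 38.2 CPM, against 49.9, 50.6, 108 and 72.5 CPM (log2 change -1.22 ± 0.27, adjusted p = 0.0469). Gnb1l, a protein of WD repeats, had 36.9, 89.8, 34.97 and 41.1 CPM, against 106, 149, 104 and 157 CPM (log2 change -1.35 ± 0.31, adjusted p = 0.0469), and depleted library B came closest to the WT range. Stoml2, Hs3st1 and Gnb1l were chosen after their values were seen.

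Genes that handle RNA and unfolded proteins were also among the lower ones, chosen here after their values were seen. Srsf2, a splicing factor of the SR family, had 270.5, 207, 239 and 255 CPM in depleted tumours, against 390.3, 387, 357 and 361 CPM in WT tumours (log2 change -0.62 ± 0.13, adjusted p = 0.0346). Sf3b4, a subunit of the U2 splicing particle, had 31.8, 33.9, 36.5 and 36.5 CPM, against 56.7, 56.9, 64.4 and 63.1 CPM (log2 change -0.796 ± 0.15, adjusted p = 0.0221). Hnrnpa0, an RNA-binding protein, had 131, 163, 169.6 and 139.7 CPM, against 208, 229.9, 237 and 257 CPM (log2 change -0.62 ± 0.13, adjusted p = 0.0359), and the splicing factor Rbm17 had 50.8, 39.6, 52.1 and 52.3 CPM, against 72.3, 77.04, 84.1 and 77.5 CPM (log2 change -0.67 ± 0.15, adjusted p = 0.0417, and -0.57 without depleted library B, no longer called). Eif4a3, the helicase of the exon junction complex, had 52.4, 43.96, 50.8 and 58.3 CPM, against 94.6, 93.9, 100.2 and 86.1 CPM (log2 change -0.87 ± 0.17, adjusted p = 0.0321). Vcp, the unfoldase that pulls ubiquitylated proteins from complexes, had 204, 198, 234 and 179 CPM, against 305, 294, 332 and 317 CPM (log2 change -0.61 ± 0.13, adjusted p = 0.0375), and Adrm1, a ubiquitin receptor of the proteasome, had 29.1, 15.1, 29.3 and 30.5 CPM, against 46.4, 49.8, 49.8 and 51.5 CPM (log2 change -0.92 ± 0.21, adjusted p = 0.0469). Most members of their families were not called. Of 10 tested Srsf genes 1 was called lower, with a median change of 0.01, of 18 Hnrnp genes 1 (median -0.05), of 8 Sf3 genes 1 (median -0.28), and of 14 Psmd genes of the proteasome cap none (median -0.05).

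**Figure D2:**
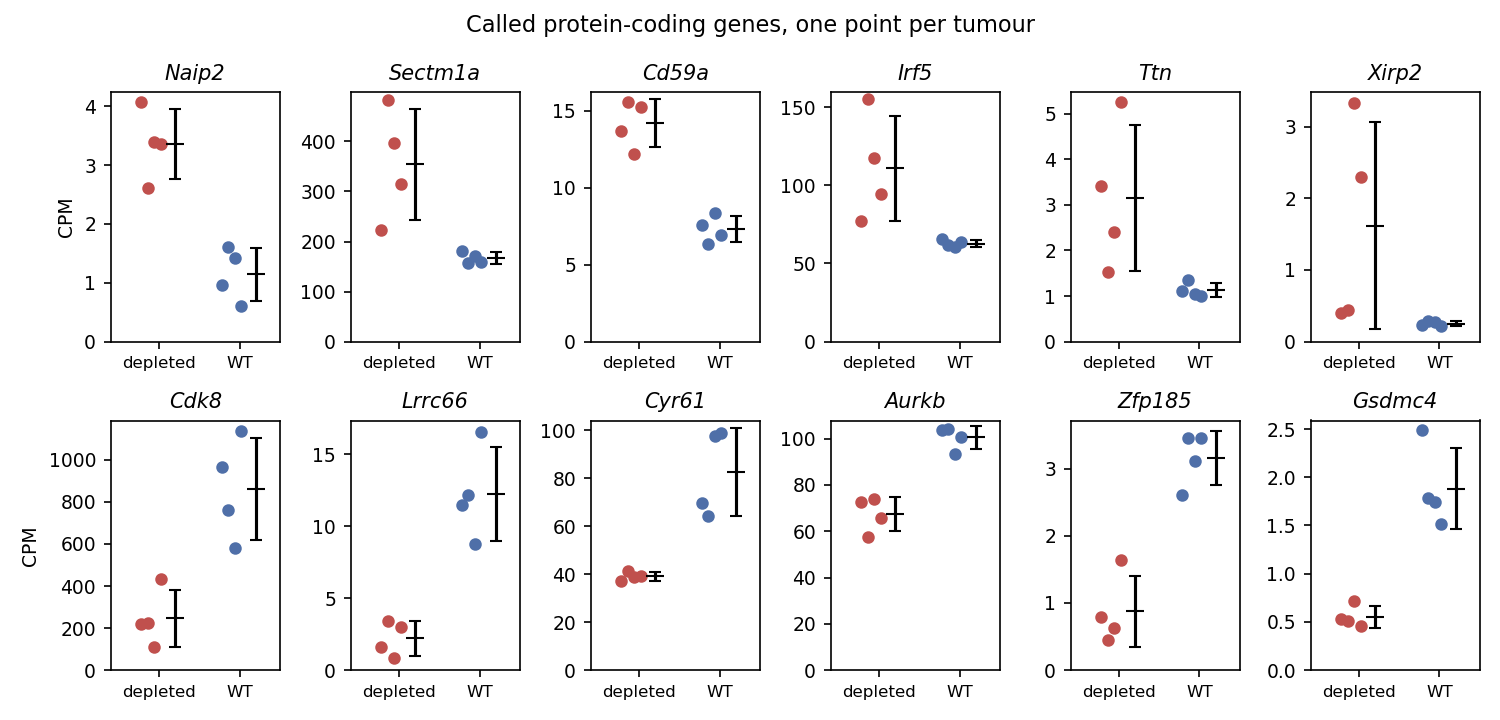
Expression of 12 called protein-coding genes in CPM (y axis, from 0) with 1 point per tumour, B cell-depleted in red on the left and WT in blue on the right of each panel, and the mean ± SD of 4 tumours beside the points. Cd59a and Aurkb show tight groups that do not overlap. Those of Cyr61 do not overlap either, but only its depleted tumours are tight. In Xirp2 the depleted tumours spread, C at 3.32 and D at 2.30 CPM, with A and B near the WT level.

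Since counts cover whole spans, the called protein-coding genes were searched for other genes inside them, after the values had been seen. Of 68 called protein-coding genes 13 held other genes that took at least 10% of their counts, and in 9 of them at least 50%. Counts of the inner genes were subtracted and the fit was repeated, as an alternative chosen after seeing the data. Of these 13 genes 3 were still called, and 155 genes were called in all. Ppm1e, a protein phosphatase, was the clearest case among the higher genes. It had 22.3, 72.99, 44.5 and 36.8 CPM in depleted tumours, against 17.4, 14.1, 8.701 and 11.3 CPM in WT tumours (log2 change 1.77 ± 0.36, adjusted p = 0.0357), but 78.8% of its counts fell on AL596130.1, a gene of 71 bases annotated as miRNA (chromosome 11, 87342727 to 87342797). Outside that stretch it had 5.31, 6.83, 6.52 and 7.88 CPM, against 4.28, 5.05, 4.35 and 4.97 CPM. The remaining change was 0.51 ± 0.18 on the log2 scale (adjusted p = 0.164), and the groups did not overlap. Depleted library B was the highest over the whole span, and without it the change was 1.44 and no longer called.

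In Cyp3a13, a cytochrome P450 of drug metabolism with 17.1, 17.7, 9.28 and 16.8 CPM against 6.04, 7.05, 4.03 and 5.19 CPM (1.44 ± 0.33, adjusted p = 0.0469), the pseudogene Gm15502 of 208 bases took 62% of the counts, and the rest changed by 0.31 ± 0.34 (adjusted p = 0.623). In Sash1, a signalling scaffold, AC091522.1 of 71 bases took 51.3%, and the change of 0.803 ± 0.17, adjusted p = 0.0358 became 0.18 ± 0.15 (adjusted p = 0.496). Lower genes gave the same picture, and some turned round. Bbs9, a subunit of the BBSome that carries cargo in cilia, had 53.7, 52.4, 103 and 71.6 CPM in depleted tumours, against 151, 202, 184 and 228 CPM in WT tumours (-1.44 ± 0.31, adjusted p = 0.0416), but 74.4% of its counts fell on the pseudogene Gm16164 of 468 bases. Without the genes inside it had 16.9, 18.6, 15.9 and 19.2 CPM, against 16.5, 18.2, 11.6 and 12.02 CPM (0.27 ± 0.17, adjusted p = 0.387). Ccdc3, a secreted protein, gave 0.28 ± 0.47 (adjusted p = 0.766) in place of -1.39 ± 0.25, adjusted p = 0.0186 once the pseudogene Gm13198 was taken out. Mettl23, a methyltransferase gene with 94.8% of its counts on Srsf2, gave 0.49 ± 0.26 (adjusted p = 0.317) in place of -0.56 ± 0.12, adjusted p = 0.0357. Still called were Xirp2 (2.43 ± 0.53, adjusted p = 0.0451), C230081A13Rik (-1.16 ± 0.21, adjusted p = 0.019) and Rapgef4, an activator of Rap proteins by cyclic AMP (0.62 ± 0.14, adjusted p = 0.0448). Sash1, Ccdc3, Mettl23, C230081A13Rik and Rapgef4 were chosen after their values were seen.

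**Figure D3:**
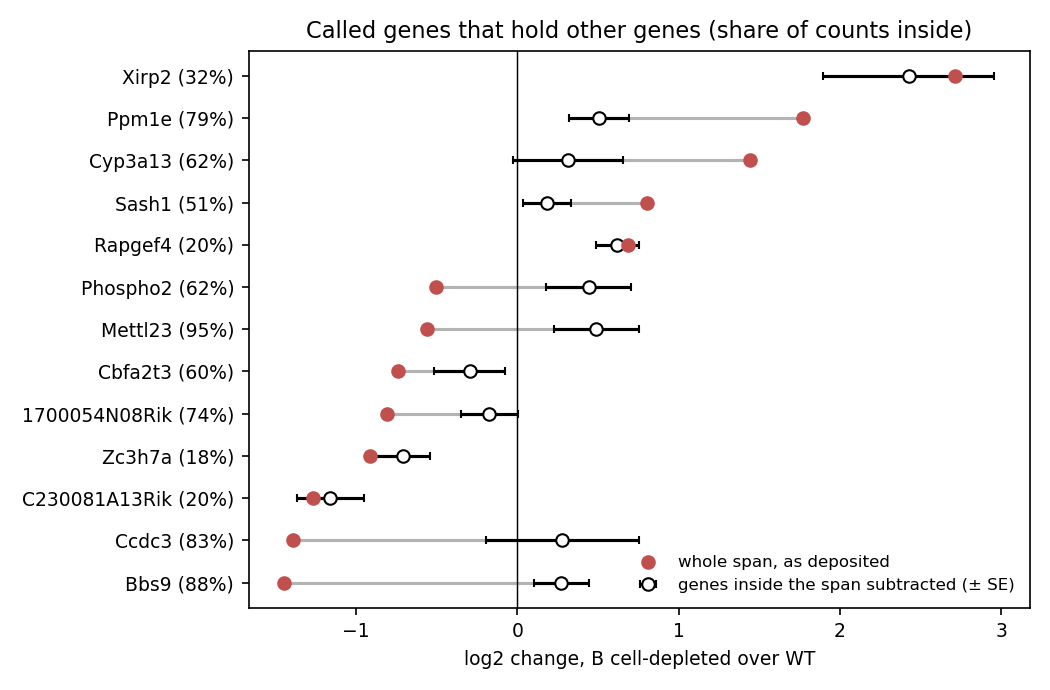
Log2 change, B cell-depleted over WT (x axis), of the 13 called protein-coding genes whose span holds other genes with at least 10% of their counts (share in brackets), for the whole span as deposited (red) and with the inner genes subtracted (white, ± SE). Of the 13, Ppm1e, Cyp3a13 and Sash1 move towards 0 and Bbs9, Ccdc3, Mettl23 and Phospho2 cross it, whereas Xirp2, Rapgef4 and C230081A13Rik stay close to their first values.

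Called pseudogenes were mostly lower, and at low levels. The 3 with the largest falls were Gm13870 (chromosome 2, 104537437 to 104538459), with 0.3096, 0, 0.125 and 0.316 CPM in depleted tumours, against 1.15, 1.64, 1.51 and 1.61 CPM in WT tumours (-2.84 ± 0.58, adjusted p = 0.0357), Gm12380 (-2.31 ± 0.48, adjusted p = 0.0357) and Gm5278 (-2.29 ± 0.39, adjusted p = 0.0151). Their WT values lay between 1.15 and 8.06 CPM and their depleted values at or below 1.81 CPM. Higher pseudogenes were Gm15502, inside Cyp3a13, with 14.7, 10.4, 5.36 and 12.7 CPM, against 2.49, 2.599, 1.24 and 1.93 CPM (2.38 ± 0.45, adjusted p = 0.0221), Gm11483, inside 6330416G13Rik (1.74 ± 0.402, an adjusted p that rounds to 0.05), and Psmb7-ps2, inside Gm6787, with 14.6, 14.1, 13.8 and 10.9 CPM, against 6.39, 6.37, 7.51 and 6.802 CPM (0.98 ± 0.17, adjusted p = 0.0151).

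A pseudogene shares most of its sequence with its parent gene, so each one named after a tested parent was set beside it. Among 233 such pseudogenes the median change was -0.16, with 151 below 0, while that of the parents was -0.01. Over all 2305 tested pseudogenes the median was -0.17. Rpl27-ps2 had 1.15, 1.21, 1.35 and 0.575 CPM in depleted tumours, against 4.05, 3.67, 3.801 and 3.38 CPM in WT tumours (-1.81 ± 0.28, adjusted p = 0.0101), while Rpl27, a protein of the large ribosomal subunit, had 74.4, 34.5, 34.2 and 85.7 CPM, against 71.01, 69.3, 98.4 and 72.7 CPM (-0.44 ± 0.26, adjusted p = 0.361). Depleted libraries B and C were low in the parent, and all 4 were low in the pseudogene. Ldha-ps, inside Baz2b, had 3.32, 1.47, 2.38 and 3.45 CPM, against 5.66, 7.23, 6.78 and 6.67 CPM (-1.29 ± 0.29, adjusted p = 0.0469), and Ldha, the lactate dehydrogenase of glycolysis, had 2324, 2680, 2728 and 3181 CPM, against 2507, 2332, 2787 and 2578 CPM (0.097 ± 0.14, adjusted p = 0.726). Rpl28-ps3, inside Oscp1, changed by -1.28 ± 0.24, adjusted p = 0.0221, and Rpl28 by -0.45 ± 0.21, adjusted p = 0.25. Actg-ps1, a copy of a cytoplasmic actin gene, had 30.6, 10.1, 27.8 and 26.9 CPM, against 68.2, 63.5, 86.8 and 81.3 CPM (-1.65 ± 0.32, adjusted p = 0.0267). These pairs were chosen after their values were seen. How the authors' alignment placed reads that match both a pseudogene and its parent is not given in the sources used here, and its part in these differences was not tested.

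Loci known to collect reads of ribosomal RNA were low throughout the depleted group. Ribosomal RNA was removed from these samples before sequencing, and 12 such loci were listed in the table. All 11 with enough counts lay below 0, with a median change of -1.03, 11 had an unadjusted p under 0.05 against 10.3% of all genes in that direction, and 4 were called, Cdk8, Zc3h7a, Mir5105 and Mir5109. Together the loci held 1132, 1653, 642 and 1755 CPM in depleted libraries A to D, against 3012, 2657, 2217 and 3770 CPM in WT libraries A to D. No depleted tumour reached the lowest WT tumour, and depleted library C was the lowest of all. Without library C the median of the list was -0.79, and without library B -1.40. Cdk8, the kinase of the Mediator complex (chromosome 5, 146231230 to 146302874), had 217, 225, 112 and 435 CPM, against 968, 760.3, 580.2 and 1136 CPM (-1.799 ± 0.32, adjusted p = 0.0186). Mir5105, a miRNA gene inside Cdk8, had 3.803, 4.27, 0.815 and 4.86 CPM, against 19.5, 12.7, 13.2 and 20.1 CPM (-2.26 ± 0.39, adjusted p = 0.0151), and depleted library C was the lowest in both. Mir5109 had 0.752, 0.128, 0.282 and 0.604 CPM, against 2.29, 2.06, 2.34 and 3.96 CPM (-2.54 ± 0.53, adjusted p = 0.0364). Zc3h7a, a CCCH zinc finger protein, had 71.8, 89.1, 53.5 and 88.6 CPM, against 139, 134, 117 and 181 CPM (-0.91 ± 0.18, adjusted p = 0.0328), and -0.71 ± 0.17 (adjusted p = 0.058) without the 57 bases of AC087541.1 inside it. In values normalized by the authors the list had a median of -0.10, Cdk8 changed by 0.03 and Zc3h7a by 0.36. Of the 33 Mediator genes tested Cdk8 was the 1 called, and the median was 0.01, with Med10 at -0.62 ± 0.17, adjusted p = 0.0778 and Med24 at -0.37 ± 0.12, adjusted p = 0.124. How much of the Cdk8 count is Cdk8 mRNA, and what part the removal of ribosomal RNA had in these values, was not tested.

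Among genes annotated as miRNA, groups of the same length and GC content were looked at, a grouping that was noticed in the values and is given as a description. There were 6 groups with at least 3 tested genes, and in 4 of them every gene lay on the same side of 0. The others were mixed, with 2 of 3 genes above 0 both at 70 bases and 60% GC (median 0.095) and at 71 bases and 59.15% GC (median 0.558). The 3 of 96 bases and 59.38% GC lay above 0 (median 0.928). They summed to 19.46, 1.531, 2.509 and 15.01 CPM in depleted libraries A to D, against 3.365, 3.774, 6.366 and 3.543 CPM in WT libraries A to D. Depleted libraries B and C thus lay below every WT library. The largest such group had 15 tested genes of 71 bases and 60.56% GC on 11 chromosomes. All 15 lay above 0, with a median of 1.44 and a range from 0.25 to 2.19, 10 had an unadjusted p under 0.05 against 8.82% of all genes in that direction, and 2 were called. AL596130.1, inside Ppm1e, had 17.03, 66.2, 37.98 and 28.9 CPM in depleted tumours, against 13.2, 9.04, 4.35 and 6.296 CPM in WT tumours (2.19 ± 0.497, adjusted p = 0.0469), and AC160932.1 (chromosome 12, 30834932 to 30835002) had 15.04, 46, 31.1 and 21.6 CPM, against 11.2, 8.26, 4.03 and 5.82 CPM (1.95 ± 0.42, adjusted p = 0.0417). Summed over the 15 genes the values were 217, 712, 581 and 366 CPM in depleted libraries A to D, against 259, 199, 84.7 and 148 CPM in WT libraries A to D. Depleted library A lay below WT library A, so the summed groups overlapped, and depleted library B, the one that stood apart, was the highest. Without library B the changes of AL596130.1 and AC160932.1 were 1.78 and 1.64, neither of them called.

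Short genes of another length went the other way. The 3 of 57 bases and 73.68% GC, AC087541.1, AC160935.1 and AL807811.1, summed to 11.2, 15.1, 4.96 and 18.1 CPM in depleted libraries A to D, against 48.1, 41.1, 36.1 and 70.3 CPM in WT libraries A to D, with no overlap and depleted library C the lowest as in the ribosomal RNA-like loci. AC087541.1 (-1.995 ± 0.36, adjusted p = 0.0186) and AC160935.1 (-1.95 ± 0.401, adjusted p = 0.0358) were called, and AL807811.1 was at -2.41 ± 0.58, adjusted p = 0.0606. The 3 of 84 bases and 50% GC summed to 47.5, 11.9, 31.6 and 42.1 CPM, against 93.9, 78.96, 124 and 105 CPM. Here depleted library B was the lowest. AC073947.1 of this length, with 0.929, 0.0638, 1.004 and 0.6901 CPM, against 3.90, 3.45, 5.17 and 3.77 CPM, was called (-2.52 ± 0.57, adjusted p = 0.0469, and -2.203 without library B, no longer called), and AC156551.1, inside the actin pseudogene Actg-ps1, was at -1.66 ± 0.399, adjusted p = 0.058. Over all 6 tested genes of 84 bases, among them AL669855.1 inside the actin gene Actg1 (-1.5 ± 0.38, adjusted p = 0.0669), each lay below 0 and 5 had an unadjusted p under 0.05. Whether genes of 1 length share their sequence could not be read, since no genome sequence was used here. Among other noncoding genes, AC108409.1 inside Cacul1 fell (-2.16 ± 0.48, adjusted p = 0.0468), and Mir1981 inside Mosc2 (0.86 ± 0.19, adjusted p = 0.0417), the antisense gene 4930550G17Rik (1.28 ± 0.29, adjusted p = 0.0469) and 4930535L15Rik, inside Cdhr4 and Gm20662 (1.14 ± 0.23, adjusted p = 0.0346), rose.

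**Figure D4:**
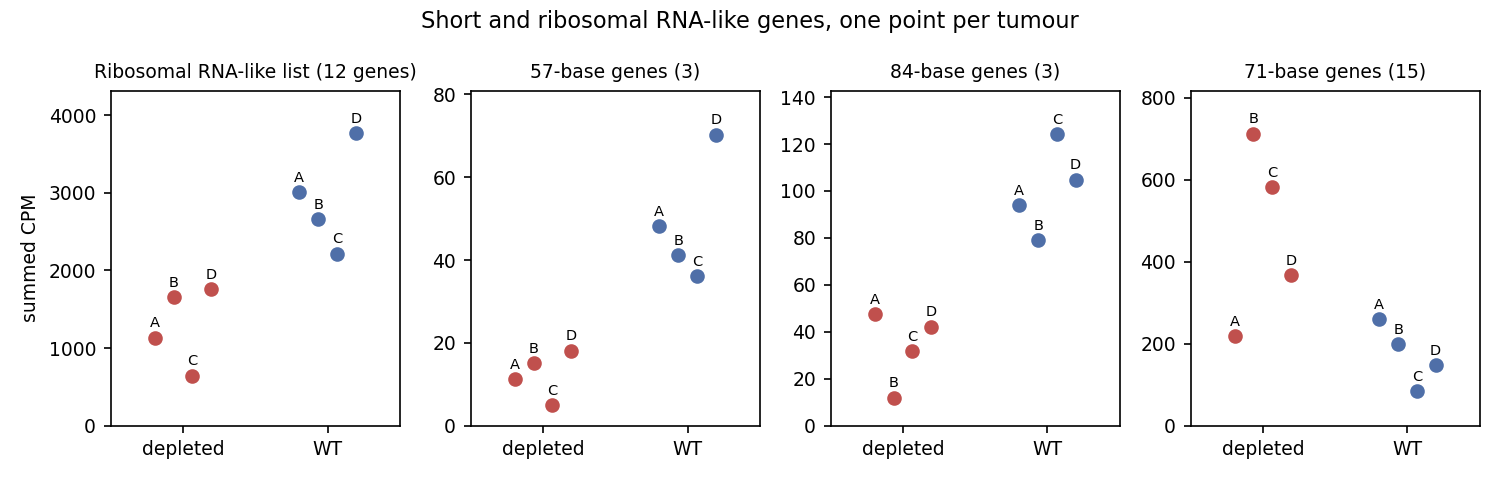
Summed CPM (y axis, from 0) of the ribosomal RNA-like loci and of genes annotated as miRNA of 57, 84 and 71 bases, with 1 point per tumour labelled by its library letter, B cell-depleted in red on the left and WT in blue on the right of each panel. The first 3 sets lie lower in depleted tumours without overlap, and the 71-base genes lie between 217 and 712 CPM in depleted tumours, against 84.7 to 259 CPM in WT tumours.

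Other gene groups were described by lists, beside which the 0.212% of all genes called higher, the 0.677% called lower and the median of 0.04 are the background. Lymphocyte genes were sparse. Of 20 listed T cell genes 7 could be tested, 1 was called lower, and the median was 0.17, which went to -0.15 without depleted library D and -0.11 without WT library B. Tcf7, a transcription factor of naive and memory T cells, had 10.2, 7.46, 6.99 and 9.57 CPM in depleted tumours, against 15.2, 13.7, 16.6 and 20.98 CPM in WT tumours (-0.96 ± 0.19, adjusted p = 0.0346). A share of 78.7% of its span is also listed for a lincRNA and an antisense gene. Tcf7 held 903 counts in depleted and 1808 in WT libraries, while Cd3d held 8 and 9 and Trac 3 and 3. How much of the Tcf7 count comes from T cells was not tested. Of the 7 tested genes 4 lay above 0 and 3 below. The co-stimulatory receptor Cd28 was at -0.44 ± 0.17, adjusted p = 0.183, and Cd247 at 0.67 ± 0.28, adjusted p = 0.212. Of 5 testable killer lymphocyte genes none was called (median -0.03), with Ctsw, a protease of killer cells, at -0.92 ± 0.57, adjusted p = 0.385, Gzmk, a granzyme, at -0.33 ± 0.22, adjusted p = 0.42, and the chemokine gene Ccl5 at 0.64 ± 0.44, adjusted p = 0.433. Of 10 genes of regulatory T cells and checkpoints none was called (median 0.18). Foxp3, the master factor of regulatory T cells, had 18.9, 24.3, 28.3 and 20.4 CPM, against 15.5, 16.1, 12.6 and 16.04 CPM (0.61 ± 0.17, adjusted p = 0.0853), with all its span inside that of other genes. It held 2419 counts in depleted and 1640 in WT libraries, while Cd4 held 21 and 26 and Cd3e 27 and 19. Other T cell genes held more, such as Cd247 with 2694 and 1916. How much of the Foxp3 count comes from regulatory T cells was not tested. Tnfrsf9, the co-stimulatory receptor 4-1BB, was at -0.65 ± 0.28, adjusted p = 0.221, and lies mostly inside Camta1, and Cd96 was at -0.66 ± 0.37, adjusted p = 0.338.

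Genes of antigen presentation lay lower in the median, and 1 WT tumour carried most of that. The 8 tested MHC class II genes had a median of -1.12, with none called. H2-Eb1, a class II beta chain, had 4.997, 0.128, 1.73 and 1.93 CPM in depleted tumours, against 2.03, 5.27, 1.51 and 18.3 CPM in WT tumours (-1.62 ± 0.93, adjusted p = 0.349), and Ciita, the activator of class II genes, had 0.486, 0.255, 0.188 and 0.489 CPM, against 0.421, 0.249, 0.0458 and 2.85 CPM (-1.35 ± 0.86, adjusted p = 0.397). WT library D was far above the rest in both, and H2-Aa, a class II alpha chain at -1.39 ± 0.97, adjusted p = 0.434, was at 0.003 without it. Summed over the list, the values were 57.3, 8.201, 22.6 and 42.6 CPM in depleted libraries A to D, against 17.9, 40.6, 31.3 and 128 CPM in WT libraries A to D, and without WT library D the median of the list was 0.003. The 19 MHC class I and peptide loading genes (none called) had a median of -0.301, and -0.07 without WT library D. Lowest in p were H2-T23 (-0.76 ± 0.33, adjusted p = 0.228), which shares its span with antisense genes, Psmb9, a subunit of the immunoproteasome (-1.44 ± 0.63, adjusted p = 0.23, and -0.47 without WT library D), and the peptide transporter Tap1 (-0.72 ± 0.404, adjusted p = 0.339).

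The same tumour stood out among interferon response genes. Gbp2, a GTPase induced by interferon gamma, had 5.62, 0.8294, 3.61 and 2.39 CPM in depleted tumours, against 2.29, 5.23, 3.48 and 51.4 CPM in WT tumours (-2.31 ± 0.903, adjusted p = 0.183, and -0.23 without WT library D). Gbp4, almost all of it shared with Gbp8 and Gbp9, had 0.442, 0.574, 0.721 and 0.633 CPM, against 0.382, 1.07, 0.229 and 10.7 CPM (-2.38 ± 0.96, adjusted p = 0.199). Rsad2, the antiviral protein viperin that is induced by type I interferon, went the other way and did not depend on that library. It had 15.3, 14.5, 12.9 and 17.97 CPM, against 7.88, 7.65, 7.74 and 7.66 CPM, with no overlap, and did not pass (0.97 ± 0.28, adjusted p = 0.091). Over 31 genes the median was -0.02, none was called, and without WT library D the median was 0.42. Chemokine genes (16 tested, none called) had a median of -0.22, with Ccl27a at 0.66 ± 0.27, adjusted p = 0.197, Ccl6 at -0.74 ± 0.37, adjusted p = 0.282 and Ccl22 at -1.56 ± 0.81, adjusted p = 0.298.

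Myeloid genes showed a few large differences that did not pass. Mmp9, a matrix protease of neutrophils and macrophages, had 1.81, 0.8294, 1.505 and 0.719 CPM in depleted tumours, against 0.0765, 0.249, 0.0458 and 0.3796 CPM in WT tumours. The groups did not overlap, and the log2 change was 2.597 ± 0.62, adjusted p = 0.0567, just short of the threshold. Il1b (-1.16 ± 0.89, adjusted p = 0.476) and Csf3r (0.55 ± 0.64, adjusted p = 0.645), also on the list of neutrophil genes, did not follow it, and the defining markers S100a8 and S100a9 were too low to be tested. Spp1, the secreted protein osteopontin, had 69.1, 36.5, 48.8 and 68.98 CPM, against 14.8, 42.8, 13.3 and 11.8 CPM (1.43 ± 0.42, adjusted p = 0.0995), where WT library B overlapped the depleted range. The macrophage protein gene Apoe had 743, 326, 615 and 889.8 CPM, against 975, 917, 1072 and 1043 CPM (-0.64 ± 0.25, adjusted p = 0.181). Over 20 macrophage and monocyte genes none was called (median 0.27), and 15 of the 20 lay above 0. Apoe made up most of the summed level of this list in each WT library. Of 24 innate sensors Naip2 was the 1 called (median 0.31). Tlr2, the receptor of bacterial lipoproteins, had 1.55, 1.79, 1.32 and 0.978 CPM, against 0.612, 0.534, 0.687 and 1.04 CPM (0.94 ± 0.35, adjusted p = 0.169), and the sensor Nlrp10 had 1.19, 1.53, 1.22 and 1.87 CPM, against 0.879, 1.18, 0.412 and 0.5695 CPM, without overlap (0.93 ± 0.37, adjusted p = 0.187). Of 10 dendritic cell genes (none called, median 0.11) Fscn1, an actin-bundling protein, had 55.5, 24.6, 44.7 and 51.5 CPM, against 61.1, 63.6, 106 and 100.3 CPM (-0.904 ± 0.26, adjusted p = 0.0985), Zbtb46 was at 0.41 ± 0.15, adjusted p = 0.164 and Batf3 at 0.52 ± 0.34, adjusted p = 0.41. Mast cell genes (3 tested, none called) had a median of -0.31, with Kit at -0.32 ± 0.22, adjusted p = 0.433, Hdc at 0.404 ± 0.402, adjusted p = 0.587 and Cpa3 at -0.31 ± 0.34, adjusted p = 0.619.

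Of the 17 genes in the heatmap of the study 12 could be tested and none was called, with a median of -0.05. The study chose these genes on the same samples, so their direction is not independent evidence. Beside Nlrp10 and Psmb9 they held Il17b, a cytokine of the interleukin 17 family, at 2.105 to 2.82 CPM in depleted and 3.31 to 5.201 CPM in WT tumours, without overlap (-0.86 ± 0.34, adjusted p = 0.184). The others tested were Psmb8 (-0.61), Tap2 (-0.45), Ido2 (0.404), Lag3 (0.53), Cxcl11 (-0.15), Cd83 (0.05), Il1rapl1 (-0.199), Il34 (0.297) and Tlr13 (0.61), given as log2 changes, with adjusted p from 0.571 to 0.963. H2-Q3, Tigit, Il1rl1, Tnfrsf4 and Tlr8 were too low to be tested, with at most 29 counts in a group.

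Muscle, blood and stroma genes varied between tumours of the same group. Of 22 tested skeletal muscle genes Ttn and Xirp2 were called higher, 20 lay above 0, and the median was 0.64. The summed level was 59.1, 37.3, 80.3 and 111 CPM in depleted libraries A to D, against 45.7, 50.4, 40.7 and 47.6 CPM in WT libraries A to D. Depleted libraries C and D were the highest and B was the lowest of all 8, and the median was 0.36 without D and 0.49 without C. Ldb3, a protein of the Z disc, had 1.55, 3.13, 0.909 and 2.502 CPM, against 0.956, 0.712, 0.824 and 0.664 CPM (1.34 ± 0.46, adjusted p = 0.147). Muscle next to the tumour can enter a sample when it is cut out, and its part in the values of Ttn and Xirp2 was not tested. Without depleted library C the change of Xirp2 was 2.14, and without D 2.51, neither of them called. Erythroid genes (8 tested, none called) had a median of -2.34. Hba-a1, an alpha globin gene with a near-identical copy in Hba-a2, had 37.9, 14.7, 49.96 and 52.4 CPM in depleted tumours, against 750.5, 155, 141 and 59.98 CPM in WT tumours (-2.83 ± 0.69, adjusted p = 0.0613). WT library A was about 5-fold above the next, and without it the median of the list was -1.09. Hba-a2 (-2.82 ± 0.702, adjusted p = 0.0653) and the beta globin gene Hbb-b2 (-2.68 ± 0.73, adjusted p = 0.0812) had the same pattern. Of 5 platelet genes none was called (median -0.06). Vwf, the clotting factor of platelets and endothelium, had 24.8, 22.01, 23.4 and 22.3 CPM, against 35.5, 32.8, 58.1 and 59.3 CPM, without overlap (-1.005 ± 0.28, adjusted p = 0.0896), with Itga2b at 0.33 ± 0.32, adjusted p = 0.58 and Pf4 at 0.26 ± 0.54, adjusted p = 0.812.

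Endothelial genes (18 tested, none called) had a median of 0.201, with 14 above 0. The phosphatase gene Ptprb had 6.54, 6.25, 5.39 and 5.003 CPM in depleted tumours, against 2.60, 4.24, 3.02 and 3.83 CPM in WT tumours (0.75 ± 0.21, adjusted p = 0.0873), and the adhesion protein gene Esam had 18.3, 10.5, 10.5 and 10.03 CPM, against 7.65, 6.37, 8.75 and 5.98 CPM (0.78 ± 0.26, adjusted p = 0.132). Both were without overlap, and the endothelial factor Erg was at 0.56 ± 0.24, adjusted p = 0.222. Fibroblast and matrix genes (22, none called, median -0.08) held Tagln at -0.77 ± 0.33, adjusted p = 0.218, Pdgfra at 0.66 ± 0.31, adjusted p = 0.251 and Col1a2 at -0.75 ± 0.45, adjusted p = 0.37. Skin epithelium (5, none called, median -0.22) held Lgals7 at -0.91 ± 0.38, adjusted p = 0.214, Perp at -0.79 ± 0.64, adjusted p = 0.502 and Trp63 at 0.25 ± 0.33, adjusted p = 0.683. Fat tissue genes (7, none called, median 0.43) held the lipid droplet gene Plin4, at 1.42 to 6.06 CPM in depleted and 1.19 to 2.14 CPM in WT tumours (1.32 ± 0.398, adjusted p = 0.105), Cfd at 3.52 ± 1.65, adjusted p = 0.255 and Lpl at 0.53 ± 0.25, adjusted p = 0.264. Nerve and glia genes (9, none called, median 0.41) and pigment genes (19, none called, median -0.03) share S100b, a calcium-binding protein of Schwann cells and melanocytes. S100b had 208, 222, 236 and 304 CPM, against 156, 157, 136 and 119 CPM, without overlap (0.77 ± 0.204, adjusted p = 0.074). Prph was at -1.63 ± 0.51, adjusted p = 0.115 and Pmp22 at 0.76 ± 0.33, adjusted p = 0.218 in the first list, and Gpr143 at -0.46 ± 0.16, adjusted p = 0.149 and Ednrb at 0.93 ± 0.35, adjusted p = 0.171 in the second.

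DNA replication genes lay lower in depleted tumours by a small margin. Of 22 DNA replication genes 12 had an unadjusted p under 0.05 in the lower direction, against 10.3% of all genes, 9 did not overlap and lay below, against 8.43% of all genes, and none was called. The median was -0.35 and ran from -0.39 to -0.29 when a library was left out. Tyms, which makes thymidylate, had 38.3, 40.2, 45.8 and 37.95 CPM in depleted tumours, against 63.5, 64.6, 53.4 and 62.01 CPM in WT tumours (-0.59 ± 0.14, adjusted p = 0.0527). Cdt1, which licenses replication origins and lies inside Gm20388, had 60.9, 45.2, 45.6 and 53.2 CPM, against 83.5, 74.4, 85.6 and 92.1 CPM (-0.71 ± 0.17, adjusted p = 0.0528), and Uhrf1, which keeps DNA methylation through replication, had 146, 100, 121 and 124 CPM, against 186, 189, 166 and 206 CPM (-0.603 ± 0.15, adjusted p = 0.0653). Of 26 genes of the cell cycle and mitosis Aurkb was the 1 called, and the median was 0.06, with Plk1 at -0.63 ± 0.21, adjusted p = 0.13 and Cdc20 at -0.52 ± 0.21, adjusted p = 0.202, in both of which depleted library B was the lowest. Early response genes (21 tested) held Cyr61 as the 1 called and a median of -0.38, or -0.15 without depleted library B. Jund was at -0.71 ± 0.205, adjusted p = 0.0965 and Ier2 at -0.798 ± 0.26, adjusted p = 0.132.

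Heat shock chaperones (18, none called) had a median of -0.14, with Dnajb1 at -0.52 ± 0.16, adjusted p = 0.118, Bag3 at -0.54 ± 0.19, adjusted p = 0.153 and Hspa1a at -1.02 ± 0.38, adjusted p = 0.17. Replication-dependent histones (33, none called, median -0.24) had their lowest p in near-identical H2A copies, Hist1h2an (-1.704 ± 0.47, adjusted p = 0.0864), Hist1h2af (-2.07 ± 0.61, adjusted p = 0.0988) and Hist1h2ab (-1.14 ± 0.36, adjusted p = 0.12). Hypoxia and glycolysis genes (23, none called, median -0.22) held Pfkl, a phosphofructokinase with 762, 544, 916 and 921 CPM in depleted tumours, against 1136, 1117, 1323 and 1317 CPM in WT tumours (-0.64 ± 0.17, adjusted p = 0.0751), Pkm at -0.497 ± 0.17, adjusted p = 0.148 and Ddit4 at -0.69 ± 0.296, adjusted p = 0.217. Unfolded protein response genes (19, none called, median 0.04) held Sdf2l1 at -0.71 ± 0.26, adjusted p = 0.166, Creld2 at -0.65 ± 0.24, adjusted p = 0.17 and Pdia6 at -0.27 ± 0.15, adjusted p = 0.314. Cholesterol synthesis genes (18, none called, median -0.11) held Mvk at -0.66 ± 0.22, adjusted p = 0.135 and Srebf2 at -0.46 ± 0.16, adjusted p = 0.151. Circadian genes (19, Usp2 called higher, median 0.15) held Arntl at 0.58 ± 0.22, adjusted p = 0.175.

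The ribosomal protein, respiratory chain, constitutive proteasome and zinc finger lists had medians near that of all genes. Ribosomal protein genes (80, none called, median -0.11) differed in both directions. Rpl7 had 144, 176, 198 and 162 CPM in depleted tumours, against 272, 289.5, 268 and 268 CPM in WT tumours (-0.69 ± 0.18, adjusted p = 0.0731), Rplp1 had 470.4, 1544, 634 and 682 CPM, against 414, 404, 437 and 346 CPM, with depleted library B the highest (1.06 ± 0.297, adjusted p = 0.0896), and Rps13 was at -0.601 ± 0.19, adjusted p = 0.122. Nuclear genes of the respiratory chain (80, none called, median 0.11) held Uqcrh at 0.65 ± 0.21, adjusted p = 0.127, Ndufs8 at 0.34 ± 0.11, adjusted p = 0.127 and Ndufb2 at 0.99 ± 0.35, adjusted p = 0.153. Constitutive proteasome genes (34, none called, median -0.07) held Psmd8 at -0.69 ± 0.18, adjusted p = 0.0728, Psmd10 at -0.63 ± 0.199, adjusted p = 0.122 and Psmd2 at -0.35 ± 0.12, adjusted p = 0.127. Of 306 zinc finger genes Zfp575 was called higher and Zfp185 lower, the median was 0.13, and Zfp791 was at -0.95 ± 0.24, adjusted p = 0.067. Small structural RNAs (39, none called) had a median of 0.52, and Snord95 (1.31 ± 0.49, adjusted p = 0.171), Snora73b (1.24 ± 0.47, adjusted p = 0.175) and Snord65 (2.16 ± 0.896, adjusted p = 0.207) lie inside longer genes.

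**Figure D5:**
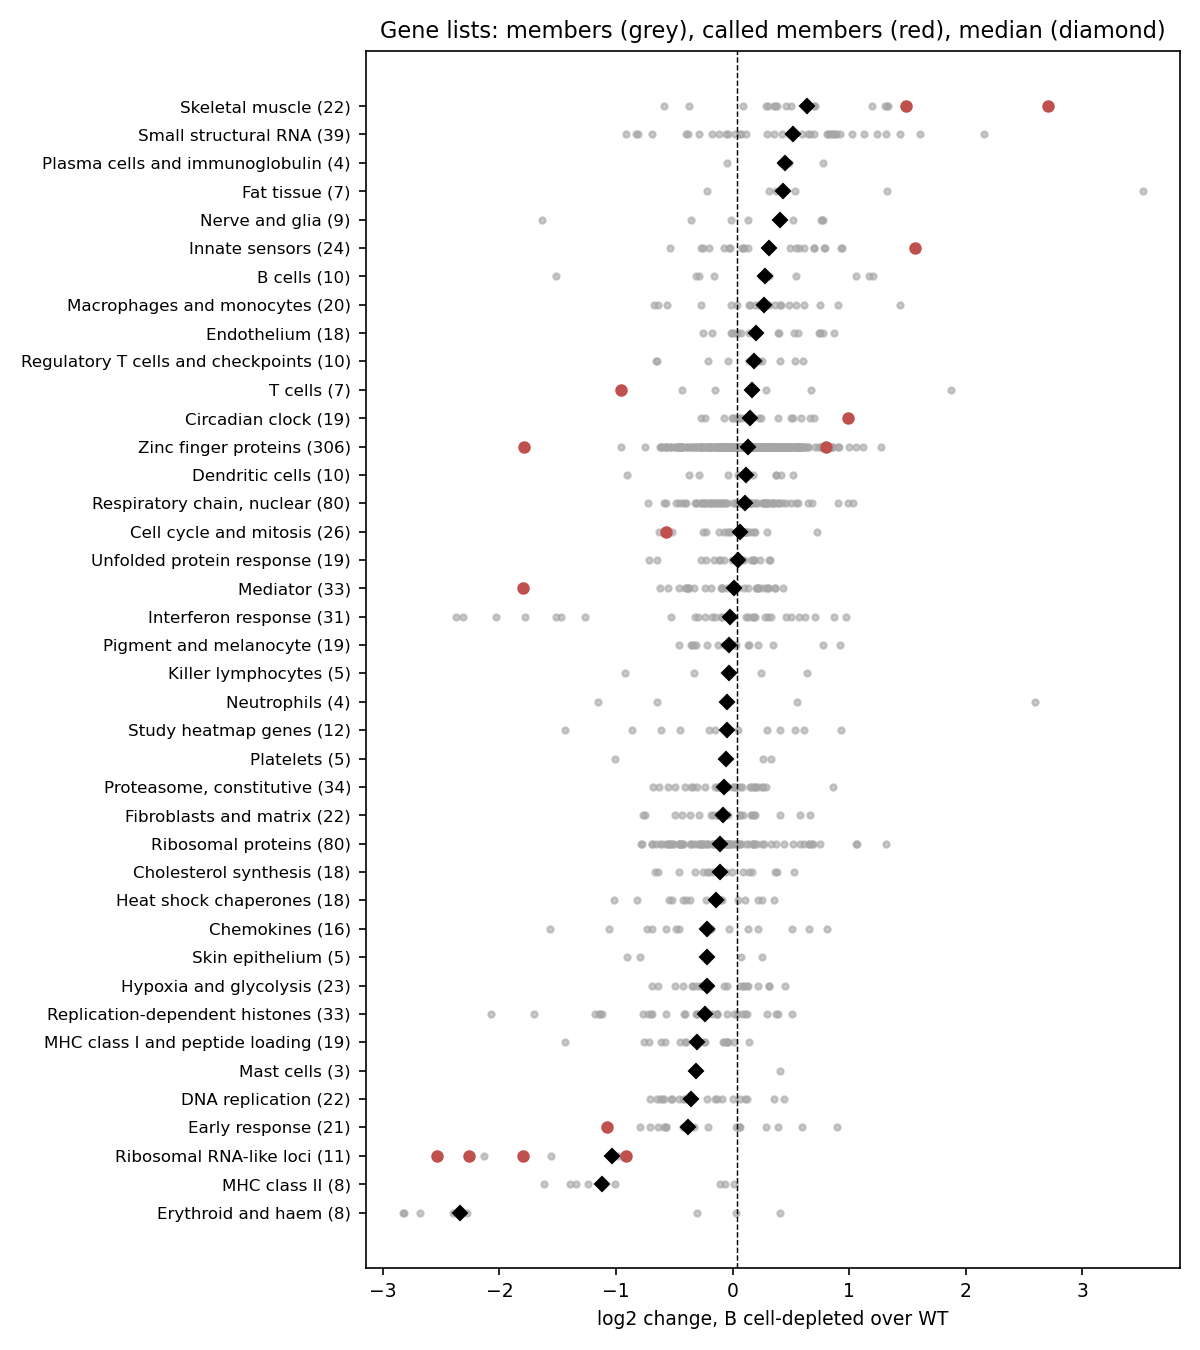
Log2 change, B cell-depleted over WT untreated tumours (x axis), of the tested members of each gene list (y axis, number tested in brackets), with members in grey, called members in red and the median as a diamond, beside a dashed line at the median of all genes, 0.04. Erythroid genes, MHC class II genes and ribosomal RNA-like loci have the lowest medians, -2.34, -1.12 and -1.03, with -1.09 for the first without WT library A and 0.003 for the second without WT library D.

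The 8 libraries from mice given anti-PD-L1 allow the same comparison under treatment. There 135 of 19340 genes (0.698%) were called, 86 higher and 49 lower in depleted treated tumours. The difference between both comparisons was tested as an interaction, which is the depleted minus WT change in treated tumours less that in untreated tumours, and 1474 genes (7.62%) passed, 918 above 0 (4.75%) and 556 below 0 (2.87%), or 174 with the GC slope of each library as a covariate. Since the untreated change is a part of this term, genes called in untreated tumours start with a share of it, and their count is a description. Of the 131 lower genes 110 (84%) and of the 41 higher genes 27 (65.9%) passed. In treated tumours 28 of the lower genes (21.4%) and 13 of the higher genes (31.7%) had the same sign, against 36.4% of all genes. The GC slope was -0.46 to -0.09 in WT treated libraries, against 0.14 to 0.25 in WT untreated libraries. In depleted treated libraries it was -0.04 to 0.22. The part of this shift in the changes of sign was not tested. Of the 172 genes 9 were also called in treated tumours, 8 of them in the opposite direction.

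Single genes differed in how they did so. Cdk8 changed by -1.799 ± 0.32 in untreated and by 0.54 ± 0.31 in treated tumours (interaction 2.34 ± 0.45, adjusted p = 0.0161), and Lrrc66 by -2.49 ± 0.36 and 0.14 ± 0.33 (interaction 2.63 ± 0.49, adjusted p = 0.0152). Naip2 changed by 1.56 ± 0.33 in untreated and by -0.299 ± 0.32 in treated tumours (interaction -1.86 ± 0.46, adjusted p = 0.0297), and Irf5 by 0.82 ± 0.17 and -0.58 ± 0.17 (interaction -1.397 ± 0.24, adjusted p = 0.0111). Psmb7-ps2 was called in both, with 0.98 ± 0.17 in untreated and -1.21 ± 0.17 in treated tumours (adjusted p = 0.01 in treated). Among the genes with the same sign in both, Cst13 changed by -3.83 ± 0.83 in untreated and -4.04 ± 1.1 in treated tumours (adjusted p = 0.0759 in treated), and the noncoding gene 4930535L15Rik, the 1 of the 9 with the same sign in both, changed by 1.14 ± 0.23 and 1.04 ± 0.23 (adjusted p = 0.0493 in treated). The 71-base genes had a median of 1.44 in untreated and 0.54 in treated tumours, the 57-base genes of -1.995 and 0.44, and the 84-base genes of 50% GC of -1.66 and 0.90.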

How the data were processed

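RNA was extracted from whole tumours with a Qiagen kit, depleted of ribosomal RNA and sequenced after preparation with the Ion Total RNA-Seq Kit v2. The authors deposited whole-number counts per gene with GC content as a percent, and log2 values that they had normalized. The submitters' processing notes name DESeq and the mouse build mm10. Aligner, counter and annotation were not given in the sources used here. In the table the length of each gene equals its span, and 14522 of 38087 genes (38.1%) overlap another. Tables of the authors' own comparisons, with fold changes and p-values, were deposited too and not used, nor were 32 columns of coverage per library.

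Counts of all 16 libraries in 4 groups were fitted in edgeR 4.0.16 (R 4.3.3) with TMM scaling, its filter on low counts and the quasi-likelihood test, with Benjamini-Hochberg adjustment over all 19340 genes and a threshold of 0.05. Log2 changes are depleted over WT, with standard errors, and CPM per library are given with TMM-scaled library sizes, except for sums over lists and for Igkc, which are relative to the plain library totals. B cell genes were also compared by exact two-sided permutation over 4 against 4 libraries. DESeq2 1.42.0, limma 3.58.1 with library weights, other filters and scaling, GC slope as a covariate, the authors' log2 values and the omission of each library served as alternatives, and the subtraction of inner genes was added after seeing the data. In the fit of the authors' values 18860 genes were left after 480 with flat or damaged values were dropped. Libraries are called by the letters of the columns. Scripts were tested on simulated counts.

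Genes were named by rule: the B cell genes Igkc, Ighm, Ms4a1, Cd79a and Cd79b; among called genes with all 4 libraries of a group on 1 side, and not on chromosome 18, the 10 protein-coding genes each way with the largest change and under 10% of their span shared, 3 pseudogenes and up to 4 genes of other types each way; called members and the 3 lowest p-values of each of 41 lists; and the genes of the study's heatmap. A few genes that the rule names are not reported here. The comparison and the lists were chosen with earlier results of these data known. RefSeq names were used for no gene, and no sequence is printed.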

Additional observations from a re-analysis of the deposited data

Results flagged for a closer look

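Single tumours stood far from the other 3 of their group in 38 of the 462 sets of 4 values looked at (named genes, list sums and library measures), where chance alone flags about 1 in 20, or about 23. Of the 38, 17 were in depleted and 21 in WT libraries, with 11 in depleted library B and 7 in WT library D. Depleted library B had a correlation of 0.931 with its group, against 0.975 in the others. It was low for AL669855.1 (11.8 CPM, against 45.9 to 52.5 in the other depleted tumours), Adrm1 (15.1, against 29.1 to 30.5), Bag3 (41.6, against 71 to 73.03) and Rbm17 (39.6, against 50.8 to 52.3). It was high for the B cell homing receptor Cxcr5 (2.04, against 0.442 to 0.659), Gm10073 (1248, against 643 to 737), Gnb1l (89.8, against 34.97 to 41.1) and Snord65 (1.79, against 0.115 to 0.314), and for the sums of the T cell list (70.2, against 45.1 to 47.1 CPM) and the circadian list (947, against 826 to 844 CPM). Elsewhere in the depleted group, Esam (18.3 CPM) and Hdc (0.8403) were high in library A, Hbb-b2 (38.4) and Psmd10 (23.1) were high and Cyp3a13 (9.28) was low in library C, and Tagln (9.75) was high in library D.

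Among WT tumours, library D was high for Ciita (2.85 CPM, against 0.0458 to 0.421 in the other WT tumours), Gbp2 (51.4, against 2.29 to 5.23), Gbp4 (10.7, against 0.229 to 1.068), Psmb8 (23.2, against 3.403 to 5.66), Mir5109 (3.96, against 2.06 to 2.34), the interferon list (495, against 172 to 211) and the T cell list (54.2, against 48.1 to 49.1). Library A was high for Hba-a1 (750.5 CPM, against 59.98 to 155), Hba-a2 (709, against 56.1 to 147), Hbb-b2 (488, against 31.5 to 100.5), the erythroid list (2753, against 389 to 782) and Trp63 (1.61, against 0.778 to 0.854). It was low for Hist1h2ab (0.382 CPM, against 0.605 to 0.641) and the fibroblast list (1082, against 1833 to 1865). Library B was high for Csf3r (0.5696 CPM) and Spp1 (42.8). Library C was high for Ighm (2.98 CPM), Rpl27 (98.4) and Rpl28 (106), and low for Foxp3 (12.6) and the small structural RNA list (24.8).

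The change with B cell loss differed between anti-PD-L1 treated and untreated tumours in 83 of the 187 named genes with a fit, against 7.62% of all genes, and most of these genes were named for their untreated change, which is part of the interaction. Values are log2 differences, treated change less untreated change. In 16 genes the interaction was below 0: Gm15502 (-4.68), Psmb7-ps2 (-2.19), Cyp3a13 (-2.07), Naip2 (-1.86), Lpl (-1.82), Mir1981 (-1.696), Irf5 (-1.397), Afap1l2 (-1.396), Cd59a (-1.33), Gdpd1 (-1.302), Sectm1a (-1.19), Gm10073 (-1.12), Dpysl2 (-1.03), Usp2 (-1.01), Sash1 (-0.86) and Ndufs8 (-0.64). In 67 it was above 0. Those under 1 were Aurkb (0.66), Med10 (0.81), Hnrnpa0 (0.88), Tyms (0.92), Rps13 (0.95), Mettl23 (0.97), Psmd10 (0.99), Tcf7 (0.99) and Vcp (0.99). From there to 1.5 lay Pkm (1.01), Plk1 (1.04), Bag3 (1.05), Jund (1.06), Srsf2 (1.08), Pfkl (1.103), Creld2 (1.14), Zc3h7a (1.16), Cdc20 (1.18), Sf3b4 (1.24), Rbm17 (1.26), Rpl27 (1.29), Sdf2l1 (1.31), Mvk (1.37), Apoe (1.39), Ier2 (1.41), Cyr61 (1.44), Hs3st1 (1.44), Gm13198 (1.45), Rpl28 (1.49) and Ddit4 (1.49). Above 1.5 came Stoml2 (1.52), Adrm1 (1.55), Eif4a3 (1.63), H2-T23 (1.68), Ldha-ps (1.74), Hist1h2ab (1.76), Bbs9 (1.77), Rpl27-ps2 (1.81), Gm7293 (1.895), AL669855.1 (1.92), Rpl28-ps3 (1.96), Il17b (2.1), Fam163b (2.11), AC160935.1 (2.17), Rps2-ps5 (2.22) and AC163694.1 (2.29). The largest were AC108409.1 (2.33), Cdk8 (2.34), Gsdmc4 (2.37), Zfp185 (2.38), Actg-ps1 (2.39), Gm16164 (2.41), AC087541.1 (2.44), AC156551.1 (2.61), Lrrc66 (2.63), Mir5105 (2.64), Prph (2.65), Mir5109 (2.68), AL807811.1 (3.07), Hist1h2an (3.27), Gm5278 (3.37), AC073947.1 (3.42), Gm12380 (3.43), Gm13870 (3.46), Hist1h2af (3.67), Hba-a2 (4.39) and Hba-a1 (4.44). In Hba-a1 and Hba-a2 among these, WT library A was far above the other untreated WT libraries, at 750.5 and 709 CPM. In both genes all 4 depleted untreated libraries lay below all 4 WT untreated libraries.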

How the results depend on the processing

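The number of called genes depended on the spread used and the libraries kept. Directions were steadier, but for called genes this is largely fixed in advance. The groups did not overlap in 40 of the 41 higher and all 131 lower genes, so leaving out 1 library could hardly turn a sign. In the authors' log2 values, 9 of the called genes named in the text changed sign. Against 172 called genes, 41 higher and 131 lower, DESeq2 called 990 (384 and 606), limma with library weights 1819 (655 and 1164), the fit with GC slope as a covariate 814 (177 and 637), limma on the authors' log2 values 50 (12 and 38), and the fit of the 8 untreated libraries 0 (0 and 0), and without a filter on low counts 27 genes were higher. The 69 lower pseudogenes became 221 with DESeq2, 352 with library weights, 177 with GC slope, 28 on the authors' values and 0 with 8 libraries. The 1474 interactions became 945 without a filter, 3262 with DESeq2, 2378 with library weights, 174 with GC slope and 364 on the authors' values. Without 1 replicate the calls ran from 22 to 202, the higher genes from 1 to 82, the lower genes from 21 to 120, the lower pseudogenes from 13 to 55 and the interactions from 281 to 3890. The cause of these differences was not tested. Of 65 called genes named in the text, DESeq2 called 65, library weights 64, GC slope 61, and the authors' values 8, and leaving out WT libraries A to D left 5, 14, 10 and 6.

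Directions turned in the authors' log2 values for AL669855.1 (0.23), Bbs9 (0.34), Ccdc3 (0.53), Ccl27a (-0.14), Cd28 (0.97), Cdk8 (0.026), Cgnl1 (0.079), Cr2 (0.000), Ctsw (0.71), Fam163b (0.000), Hdc (-0.12), Il34 (-0.091), Irf5 (-1.20), Lrrc66 (0.16), Sectm1a (-0.10), Trp63 (-0.12) and Zc3h7a (0.36). With library weights they turned for Ciita (0.028), Cxcl11 (0.021), Psmb8 (0.18) and Tap2 (0.10), and with the genes inside subtracted for Mettl23 (0.49), Bbs9 (0.27), Ccdc3 (0.28) and Phospho2 (0.44). Leaving out 1 replicate gave both signs for Cd83 (-0.236 without depleted D to 0.358, also below 0 without depleted A and WT C and D), Ciita (-1.715 to 0.541 without WT D), Cxcl11 (-0.361 to 0.071 without depleted B, also above 0 without WT D), Gbp4 (-2.753 to 0.066 without WT D), H2-Aa (-1.898 to 0.003 without WT D), Psmb8 (-0.959 to 0.39 without WT D), Il1rapl1 (-0.469 to 0.002 without depleted C), Il34 (-0.055 without depleted A to 0.523) and Pf4 (-0.269 without depleted A to 0.665, also below 0 without WT D). No paired analysis was possible because the columns of the deposited tables carry letters and not the replicate numbers of the labels. With 4 tumours a group and 15729004 to 34298383 counts a library, B cell and T cell genes below about 1 CPM were at the limit of counting, and reads of overlapping genes could not be told apart. The p-values of the main fit rest on a spread shared by all 16 libraries, treated ones included, and not on the 8 compared tumours alone.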
